A study of Mus musculus with 8 samples.

Results

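The genes examined were 10 of the 46603 in the count table, chosen by name, with earlier results of these data known. The set covers receptors, kinases and a transporter of sphingosine-1-phosphate (S1P) and phosphatases that remove its phosphate outside the cell. Its members were the receptor genes S1pr1, S1pr2, S1pr3 and S1pr5, and the kinase genes Sphk1 and Sphk2. The others were the transporter gene Spns2 and the lipid phosphate phosphatase genes Plpp1, Plpp2 and Plpp3. Levels were compared between EGFP-positive and EGFP-negative biliary cells sorted from the same livers. Plpp1, S1pr1 and Plpp3 were at lower levels in the EGFP-positive cells of all 4 mice. S1pr3 was read almost only in EGFP-negative cells of 3 mice, and neither library of the remaining mouse held a read. Sphk1, Sphk2, Spns2 and Plpp2 differed in sign from mouse to mouse. S1pr3 and S1pr5 were read too little to be tested. At an adjusted p of 0.05, none of the other 8 genes passed edgeR's quasi-likelihood test. That test called 0% of the 13605 genes tested and reached an unadjusted p below 0.05 for 702 of them.

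S1P is a lipid signal made from sphingosine, itself released from ceramide. Sphingosine kinases add the phosphate, Spns2 carries S1P out of the cell, and outside it binds G protein-coupled receptors on neighbouring cells. Lipid phosphate phosphatases on the cell surface strip the phosphate from S1P and from lysophosphatidic acid (LPA), while S1P lyase and the S1P phosphatases degrade S1P inside cells. S1pr1 is known for its high level in endothelium, where it tightens junctions, and in lymphocytes, where it guides exit into blood and lymph. S1pr2 is known in liver as a receptor that conjugated bile acids also activate.

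The mice carried one copy each of R26rtTA, a doxycycline-dependent activator expressed from the ubiquitous Rosa26 locus, and of H2B-EGFP, a histone fused to a green fluorescent protein that is diluted when cells divide. All received doxycycline from postnatal day 0 to day 5, and liver cells were isolated at 8 weeks of age. EpCAM-positive, CD45-negative cells that had kept the label are called LLRCs (liver label-retaining cells), and those without it non-LRC cells, with 1 library of each kind from each of the mice JV602, JV621, JV624 and JV6314. Both groups therefore share the genotype, the doxycycline and the EpCAM gate, and differ in the EGFP gate. Hematopoietic cells of these mice express the fusion without doxycycline, per the study's text.

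Total counts were 7860021 to 9851819 in LLRC libraries and 4670132 to 8056103 in non-LRC libraries. Levels are given as CPM, the counts scaled to a common library size by TMM. Values for single mice follow the order JV602, JV621, JV624 and JV6314. The non-LRC library of JV621 stood apart, with 14234 genes detected against 16042 to 20430 in the other libraries. Epcam was at 579.9 CPM in LLRCs and 547.7 CPM in the other group, and the 10 cholangiocyte markers all had reads. They summed to 113311 to 219719 CPM in LLRC and 65424 to 160588 CPM in non-LRC libraries, mostly from Spp1. The mean was higher in LLRCs for 9 of the 10, and the groups overlapped for each. The 22 endothelial markers (Pecam1, Cdh5, Vwf and others) summed to 51.9 to 103.6 CPM in LLRC and 344 to 1579 CPM in non-LRC libraries, with a lower mean in LLRCs for all 22. For 16 of them all LLRC libraries lay below all non-LRC libraries, against 1.91% of all genes tested. The study had reported Pecam1, Cdh5, Flt1, Tek, Eng and Esam among genes lower in LLRCs of these same libraries. The list was written with earlier results of these data known, so this count is no independent evidence. Of the 22 markers, 0 to 4 were at 0 in an LLRC library and 0 to 2 in a non-LRC library. Ptprc, which encodes CD45, had 5 to 59 counts in the LLRC and 0 to 7 in the non-LRC libraries, and Cd3e and Cd79a, markers of T and B cells, were at 0 in all 8.

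Among the receptor genes, S1pr1 (ENSMUSG00000045092, chromosome 3, 115710433 to 115715072 of GRCm38, minus strand) encodes a receptor that couples to Gi proteins. Its counts were 7, 116, 1 and 34 in the LLRC libraries and 154, 1174, 186 and 189 in the non-LRC libraries. On the CPM scale these were 0.674, 13.6, 0.146 and 3.75 against 19.2, 243.7, 29.2 and 37.1. Every LLRC library lay below every non-LRC library, and the lowest non-LRC level was 1.41 times the highest LLRC level, both groups reaching their highest level in JV621. The means were 4.55 ± 6.26 CPM in LLRCs against 82.3 ± 107.8 CPM in non-LRC cells (SD, n = 4), 18.1-fold apart, or 6.25-fold when the non-LRC library of JV621 was left out. In bulk RNA from sorted cells, fewer cells of a type and less RNA per cell cannot be told apart. The log2 fold change of LLRC over non-LRC was -4.17 (SE 1.33, 95% interval -7.18 to -1.16), with an unadjusted p = 0.0119 and an adjusted p = 0.631 by edgeR's quasi-likelihood test. Over the 13 fits that left out libraries the value lay between -5.71, without the LLRC library of JV621, and -2.39. An exact two-sided permutation test of log2(CPM + 1) gave p = 0.0286, the smallest that 4 against 4 libraries allow. Paired by mouse, the exact test gave p = 0.125, the smallest that 4 pairs allow, which cannot pass 0.05. With the mouse as a replicate block the log2 fold change was -4.61 (SE 0.71, unadjusted p = 0.000705, adjusted p = 0.248 by the same edgeR test).

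S1pr3 (ENSMUSG00000067586, chromosome 13, 51408639 to 51422797, plus strand) encodes a receptor that also uses Gq and G12/13 proteins. The LLRC libraries held 0, 3, 0 and 0 of its reads and the non-LRC libraries 0, 75, 37 and 49. Neither library of JV602 held a read, where a floor of 3 counts allows up to 0.289 CPM (LLRC) and 0.373 CPM (non-LRC). In the non-LRC cells of the other 3 mice S1pr3 was at 15.6, 5.805 and 9.61 CPM. The non-LRC mean of 7.75 ± 6.54 CPM (SD, n = 4) was at least 21.95-fold higher than 3 counts per LLRC library, or at least 14.6-fold without the non-LRC library of JV621. This bound covers counting error only. S1pr3 did not pass the expression filter, so it has no value in the main test. Without the filter its unadjusted p was 0.00308 and its adjusted p 0.482 by edgeR's quasi-likelihood test.

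S1pr2 (ENSMUSG00000043895, chromosome 9, 20962361 to 20976781, minus strand), a receptor known for coupling to G12/13 proteins, had the opposite sign. Its counts were 136, 20, 27 and 28 in the LLRC libraries and 5, 1, 28 and 3 in the non-LRC libraries. These were 13.1, 2.35, 3.95 and 3.09 CPM against 0.622, 0.208, 4.39 and 0.588 CPM. LLRCs were higher in JV602, JV621 and JV6314, and the 2 libraries of JV624 were close to each other, so the groups overlapped. The log2 fold change was 1.93 (SE 0.99, 95% interval -0.31 to 4.17, unadjusted p = 0.0836, adjusted p = 0.9999 by edgeR's quasi-likelihood test). Without the non-LRC library of JV624 it was 3.50 (SE 0.92, unadjusted p = 0.00525, adjusted p = 0.371 by the same edgeR test), and the groups no longer overlapped. Without the LLRC library of JV602 it was 1.09 (SE 1.02, unadjusted p = 0.315 in edgeR), and without both libraries of JV602 it was 0.81 (SE 1.11, unadjusted p = 0.492 in edgeR). Its size thus rested on single libraries in either direction. The replicate block gave 2.47 (SE 1.04, unadjusted p = 0.0552 in edgeR). S1pr5 (ENSMUSG00000045087, chromosome 9, 21242912 to 21248443, minus strand), known from natural killer cells and oligodendrocytes, had 5 reads in all 8 libraries, 2 in LLRCs and 3 in non-LRC cells, and no fold is given at that floor.

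**Figure D1:**
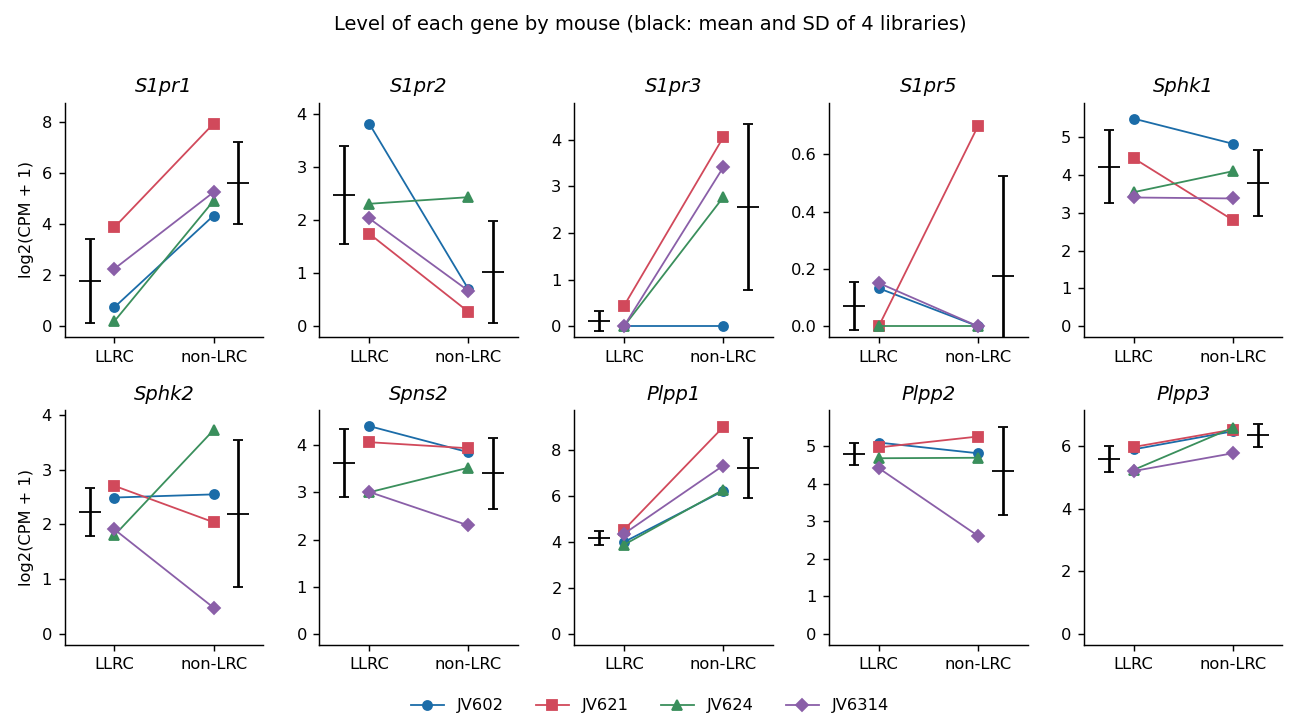
Level of the 10 genes in log2(CPM + 1) by group, with a line joining the 2 libraries of each mouse and black bars for the mean and SD of 4 libraries. The lines of S1pr1, Plpp1 and Plpp3 rise to non-LRC cells in all 4 mice, and those of Sphk1, Sphk2, Spns2 and Plpp2 cross.

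Divided by exon length, the receptors stood in a different order in different libraries. As a share of the summed CPM per kb of the receptor genes, S1pr1 made up 83.8% to 98.8% in the 4 non-LRC libraries. There S1pr2 was at 0.031% to 4.82%, the lowest resting on 1 count, and S1pr3 at 0% to 14.96%. In the LLRC libraries of JV602 and JV624, S1pr2 was the leading receptor at 86.3% and 91.2%. In those of JV621 and JV6314, S1pr1 led at 92.3% and 74.0%. S1pr1 was thus the most abundant receptor transcript per kb in every non-LRC library and in 2 of the 4 LLRC libraries. The levels were low in LLRCs: 1.49 ± 2.06 CPM per kb for S1pr1 and 0.705 ± 0.631 CPM per kb for S1pr2 (SD, n = 4), which do not differ beyond their spread.

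**Figure D2:**
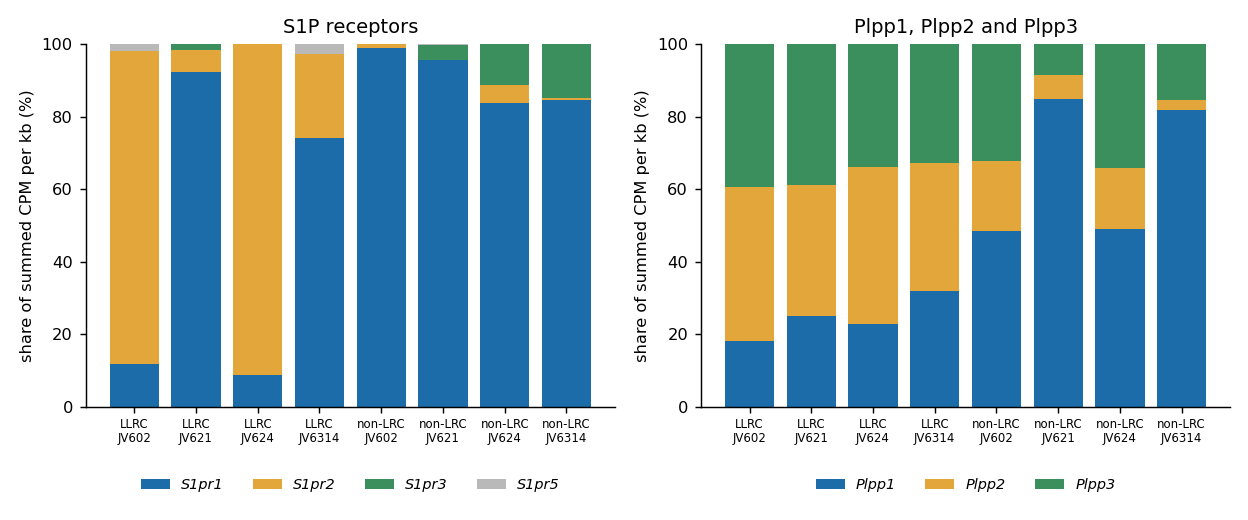
Share of each gene in the summed CPM per kb of its family, in percent, for the 8 libraries, with the S1P receptors on the left and the lipid phosphate phosphatases on the right. S1pr1 fills 83.8% or more of each non-LRC bar, while S1pr2 leads in the LLRC bars of JV602 and JV624.

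RefSeq promoter windows of 250 bases before to 50 bases after a start site (GRCm38.p6) were at hand for 8 of the 10 genes, S1pr1 and Plpp1 having none in the table. Those of S1pr2 and S1pr3 are shown because these receptors had opposite signs between the groups. Capitals mark the letters CCACCC, the core bound by KLF factors, and GGGCGG, the Sp1 core, on either strand. The S1pr2 window lies at chr9:20976744-20977043 (minus strand) and the S1pr3 window at chr13:51408368-51408667 (plus strand), both written 5′ to 3′ along the gene.
S1pr2: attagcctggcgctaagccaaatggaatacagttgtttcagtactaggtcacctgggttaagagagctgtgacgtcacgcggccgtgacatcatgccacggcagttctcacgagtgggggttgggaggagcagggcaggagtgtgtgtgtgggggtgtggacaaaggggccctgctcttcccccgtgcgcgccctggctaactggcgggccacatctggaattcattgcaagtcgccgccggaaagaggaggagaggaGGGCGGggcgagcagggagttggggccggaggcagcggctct
S1pr3: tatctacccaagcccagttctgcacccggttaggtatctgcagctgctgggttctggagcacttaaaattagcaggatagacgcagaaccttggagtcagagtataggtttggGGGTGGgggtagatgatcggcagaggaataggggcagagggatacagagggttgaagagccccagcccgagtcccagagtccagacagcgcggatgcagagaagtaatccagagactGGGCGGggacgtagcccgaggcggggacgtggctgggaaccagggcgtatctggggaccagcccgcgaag
The S1pr2 window held 18 CpG dinucleotides, 1 Sp1 core, no KLF core and 1 ETS core (CCGGAA). The S1pr3 window held 14 CpG dinucleotides, 1 Sp1 core, 1 KLF core and no ETS core, and neither held the letters TATAAA. Over all 32851 windows of this length the median was 7 CpG. An Sp1 core occurred in 35.7% of windows, a KLF core in 31.5%, an ETS core in 14.9% and TATAAA in 13.6%, so each motif found here is common and marks no particular site.

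For the genes that make and export S1P, the spread between mice was wider than the difference between the groups. Sphk1 (ENSMUSG00000061878, chromosome 11, 116530925 to 116536674, plus strand) encodes the mainly cytosolic sphingosine kinase. It stood at 44.0, 20.8, 10.7 and 9.6 CPM in LLRCs and at 27.4, 6.02, 16.2 and 9.41 CPM in non-LRC cells. LLRCs were higher in 3 mice and lower in JV624. On the log2 scale the groups differed by 0.53 (SE 0.64, 95% interval -0.91 to 1.97, unadjusted p = 0.431 by edgeR's quasi-likelihood test), and -0.10 without the LLRC library of JV602.

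Sphk2 (ENSMUSG00000057342, chromosome 7, 45709467 to 45718002, minus strand) encodes the kinase found in nucleus and mitochondria. Its levels were 4.62, 5.52, 2.48 and 2.76 CPM in LLRCs and 4.85, 3.11, 12.2 and 0.392 CPM in non-LRC cells. The highest and the lowest library were both non-LRC, those of JV624 and JV6314. Fitted on all 8 libraries, its log2 fold change was -0.42 (SE 0.84, 95% interval -2.31 to 1.47) in edgeR's fit, and 0.24 with the replicate block. Of the exon bases of Sphk2, 21.9% overlap the gene Dbp on the opposite strand, where counting without strand cannot tell the genes apart.

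Spns2 (ENSMUSG00000040447, chromosome 11, 72451638 to 72489904, minus strand), the S1P exporter known from endothelium, was read at 20.2, 15.8, 7.02 and 7.06 CPM in LLRCs. In non-LRC cells it was at 13.4, 14.3, 10.5 and 3.92 CPM. The groups overlapped throughout, with a log2 fold change of 0.25 (SE 0.56, 95% interval -1.01 to 1.503) in edgeR's fit. Per kb, Sphk1 was the more abundant kinase in all 8 libraries, with 75.2% to 89.2% of the kinase sum in LLRCs and 53.5% to 95.4% in non-LRC cells.

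Of the phosphatase genes, Plpp1 (ENSMUSG00000021759, chromosome 13, 112800792 to 112867894, plus strand; formerly Ppap2a) showed the clearest separation. Its counts were 154, 186, 93 and 175 in the LLRC libraries and 585, 2432, 481 and 802 in the non-LRC libraries. These were 14.8, 21.9, 13.6 and 19.3 CPM against 72.8, 504.7, 75.5 and 157.3 CPM. The lowest non-LRC level was 3.33 times the highest LLRC level. The LLRC libraries lay close together at 17.4 ± 3.86 CPM and the non-LRC libraries were spread at 202.6 ± 205.2 CPM (SD, n = 4). The ratio of means was 11.6, or 5.85 without the non-LRC library of JV621. Plpp1 stands, as Ppap2a, in the study's own list of genes that differed between these same libraries, so its difference here is no independent evidence. Its fitted log2 fold change was -3.54 (SE 0.67, 95% interval -5.05 to -2.03), with an unadjusted p = 0.000474 and an adjusted p = 0.124 by edgeR's quasi-likelihood test. The replicate block gave -3.06 (SE 0.47, adjusted p = 0.248 in edgeR), and the exact permutation test again gave the smallest possible p, 0.0286 unpaired and 0.125 paired by mouse. Over the 13 fits that left out libraries the value lay between -3.83 and -2.08. Of its exon bases 25.8% overlap the gene Mtrex on the opposite strand.

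Plpp3 (ENSMUSG00000028517, chromosome 4, 105157347 to 105232764, plus strand), a phosphatase needed for vascular development, was at 58.4, 61.6, 36.7 and 35.8 CPM in LLRCs and 87.6, 91.1, 94.9 and 53.5 CPM in non-LRC cells. LLRCs were lower in all 4 mice, and the groups overlapped only because the non-LRC library of JV6314 lay below the LLRC libraries of JV602 and JV621. Its log2 difference was -0.77 (SE 0.32, 95% interval -1.49 to -0.045, unadjusted p = 0.0397, adjusted p = 0.924 by edgeR's quasi-likelihood test). Its unadjusted p was below 0.05 in 6 of the 13 fits that left out libraries. Plpp2 (ENSMUSG00000052151, chromosome 10, 79526430 to 79533796, minus strand), the phosphatase of the family that is enriched in epithelia, had 33.1, 30.2, 24.6 and 20.3 CPM in LLRCs. In non-LRC cells it had 27.0, 37.2, 24.8 and 5.10 CPM, with the low value in JV6314. The groups overlapped, with a log2 fold change of 0.20 (SE 0.53, 95% interval -1.003 to 1.41) in edgeR's fit.

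The make-up of the phosphatase family differed accordingly. On the scale of CPM per kb, LLRCs held Plpp2 at 16.4 ± 3.47, Plpp3 at 15.2 ± 4.37 and Plpp1 at 9.94 ± 2.20 (SD, n = 4), with Plpp2 and Plpp3 not apart beyond their spread. Non-LRC cells held Plpp1 at 115.8 ± 117.3, Plpp3 at 25.9 ± 6.04 and Plpp2 at 14.2 ± 8.10. Plpp1 made up 18.0% to 31.9% of the family sum in the LLRC libraries and 48.6% to 84.9% in the non-LRC libraries. Plpp2 made up 35.4% to 43.4% and 2.80% to 19.1%. These shares depend on each other, since all 3 genes enter the sum, and the level of Plpp2 itself overlapped between the groups.

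**Figure D3:**
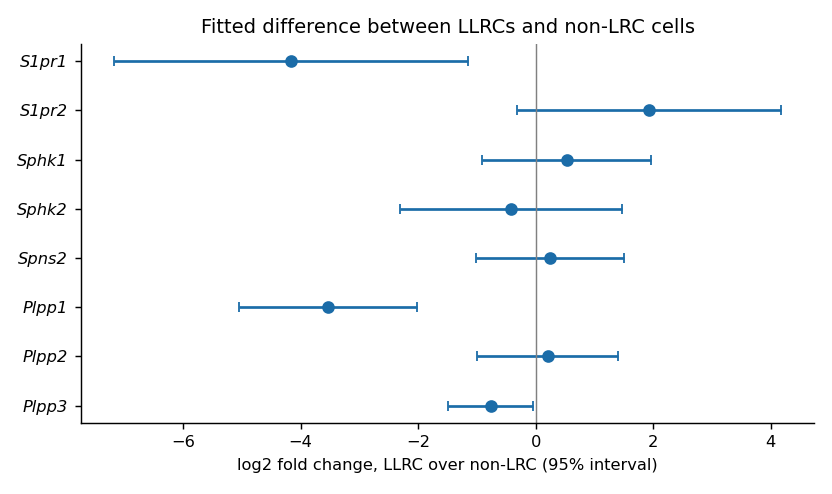
Log2 fold change of LLRC over non-LRC cells with its 95% interval for the 8 genes that passed the expression filter, from edgeR's quasi-likelihood fit to 4 libraries per group. The intervals of S1pr1, Plpp1 and Plpp3 lie below 0 and the other 5 cross it.

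Of the 8 genes tested, 3 (S1pr1, Plpp1 and Plpp3) had an unadjusted p below 0.05 and all 3 were lower in LLRCs, where 3.56% of all genes tested were lower and 1.6% higher at that level. In 2 of the 8, S1pr1 and Plpp1, all LLRC libraries lay below all non-LRC libraries, against 1.91% of all genes tested. No gene of the 8 had all LLRC libraries above, against 2.15% of all genes. The genes were chosen with earlier results of these data known, and Plpp1 stands in the study's own list. These counts are therefore no independent evidence of a difference in this family. The choice of test moved the calls. DESeq2's Wald test on the same genes called S1pr1 (adjusted p = 0.0208) and Plpp1 (adjusted p = 1.8e-05), both lower in LLRCs, as were 1.29% of the genes to which it gave an adjusted p. edgeR's exact test without a filter called Plpp1 alone (adjusted p = 0.000456), against 0.348% of genes called lower, and gave S1pr1 an adjusted p of 0.180. DESeq2 without a filter called S1pr3 as well (adjusted p = 0.0240), against 1.21% of genes called lower.

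S1pr1, S1pr3, Plpp3 and Spns2 are known from endothelium. The levels of S1pr1, S1pr3, Plpp3 and Plpp1 were set beside the endothelial markers of the same library. The marker sums were 51.9, 103.6, 92.4 and 61.0 CPM in the LLRC libraries and 344, 1579, 896 and 1032 CPM in the non-LRC libraries. The non-LRC library with the lowest sum, JV602, also had the lowest S1pr1 and Plpp1 of the non-LRC group and no S1pr3 read. The one with the highest sum, JV621, had the highest levels of S1pr1, S1pr3 and Plpp1. Plpp3 did not follow this order in non-LRC cells, where it was highest in JV624 and lowest in JV6314. Spns2 was highest there in JV621 and lowest in JV6314. Its mean was not lower in LLRCs, at 12.5 CPM against 10.5 CPM in non-LRC cells, and the groups overlapped. Among LLRCs, S1pr1 was lowest in JV624, whose marker sum lay below that of JV621 alone. Markers at 0 were Tie1, Sox17 and Lyve1 in the LLRC library of JV602, Erg and Sox18 in that of JV621, and Erg, Sox17, Sox18 and Robo4 in that of JV6314. Among non-LRC libraries, Tie1 and Lyve1 were at 0 in JV621.

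The levels were also expressed relative to the marker sum. S1pr1 amounted to 1.30%, 13.2%, 0.158% and 6.15% of the endothelial sum in the LLRC libraries and to 5.57%, 15.4%, 3.26% and 3.59% in the non-LRC libraries. The LLRC values of JV602 and JV624 rest on 7 and 1 counts, the latter under the floor of 3. Plpp1 amounted to 28.6%, 21.1%, 14.7% and 31.6%, and to 21.2%, 31.97%, 8.42% and 15.2%. For both genes the groups overlapped on this scale. S1pr3 amounted to 0%, 0.341%, 0% and 0%, and to 0%, 0.986%, 0.648% and 0.931%. Plpp3 amounted to 39.7% to 112.4% in LLRCs and 5.19% to 25.5% in non-LRC cells. The marker sums themselves do not overlap between the groups, so the ratio depends on them as well as on the gene. Nothing is read from an overlap or a gap on this scale for any of these genes. The part of endothelial cells in these values was not tested.

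**Figure D4:**
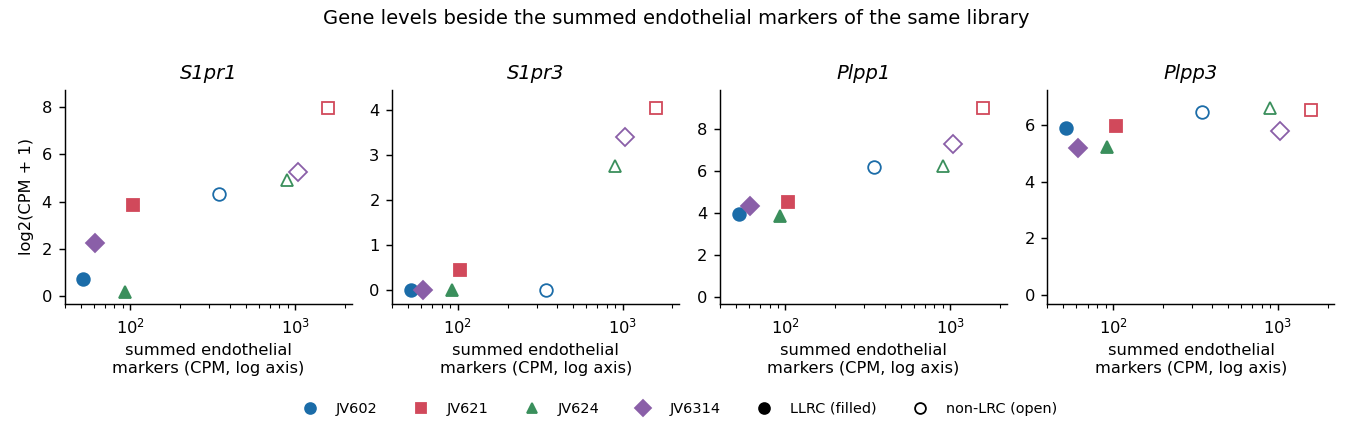
Level of S1pr1, S1pr3, Plpp1 and Plpp3 in log2(CPM + 1) against the summed CPM of 22 endothelial markers on a log axis, with 1 point per library, filled for LLRC and open for non-LRC. All LLRC points lie at or below 103.6 CPM of markers and all non-LRC points at or above 344 CPM.

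Other marker sums moved as well. Stellate cell and fibroblast markers summed to 272 to 903 CPM in LLRC and 699 to 2857 CPM in non-LRC libraries, with the highest sums in JV624 and JV6314. Within the non-LRC group, Plpp3, Sphk2 and S1pr2 were at their highest in JV624, while in JV6314 Plpp3 and Sphk2 were at their lowest and S1pr2 was at 0.588 CPM. S1pr1 and Plpp1 in JV6314 lay below JV621 alone. The 4 smooth muscle markers summed to 0.877 to 4.30 CPM and 2.74 to 75.9 CPM, the 4 mesothelial markers to 28.5 to 81.9 CPM and 21.8 to 513 CPM, and the 10 hepatocyte markers to 2941 to 3461 CPM and 2133 to 7440 CPM. Pancreatic acinar markers reached 1082 CPM in non-LRC cells of JV6314, where Sphk2, Spns2, Plpp2 and Plpp3 were at the lowest level of the non-LRC group, and at most 22.7 CPM elsewhere. Hematopoietic markers summed to 569.9 CPM in the non-LRC library of JV621, of which S100a8, a neutrophil gene, gave 2732 counts. The next highest sum, 89.6 CPM, was in the LLRC library of JV621, with 726 counts of S100a8, and 3 of the 10 markers were at 0 in every library. Within each group S1pr1 and Plpp1 were at their highest and S1pr2 at its lowest in JV621. The part of these cells in the levels of the S1P genes was not tested.

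Of 65 further genes of the pathway, in 5 lists, 50 passed the filter, 0 had an adjusted p below 0.05 by edgeR's quasi-likelihood test, and 2 had an unadjusted p below 0.05, both lower in LLRCs. With 3.56% of all genes tested lower and 1.6% higher at that level, this count is near the background. It was 8 without the non-LRC library of JV621, a fit in which 1273 of all 14305 genes tested reached that level. It was 4 without the LLRC library of JV602 (597 of 14003 genes) or the non-LRC library of JV624 (805 of 13963 genes), and 1 with the replicate block (569 of 13605 genes). The median log2 fold change of the 50 was 0.037, against -0.015 over all genes tested. Acer2 (ENSMUSG00000038007, chromosome 4, 86874396 to 86934822), a Golgi ceramidase that releases sphingosine from ceramide, was the first. It stood at 5.88, 11.8, 8.04 and 6.84 CPM in LLRCs and at 34.6, 88.6, 57.3 and 23.5 CPM in non-LRC cells. All LLRC libraries lay below all non-LRC libraries, as for S1pr1 and Plpp1. Acer2 had a log2 fold change of -2.65 (SE 0.49, unadjusted p = 0.000406, adjusted p = 0.124 by edgeR's quasi-likelihood test), and it lay between -2.88 and -2.23 in 13 fits that left out libraries. DESeq2 called it (adjusted p = 2.8e-05), as did edgeR's exact test (adjusted p = 0.00240). Acer2 also stands in the study's own list from these libraries, so the same limit holds.

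Klf2 (ENSMUSG00000055148, chromosome 8, 72319033 to 72321656), a transcription factor that activates S1pr1 in lymphocytes, was the second. Its levels were 1.93, 0.823, 1.61 and 1.104 CPM in LLRCs and 1.37, 3.32, 10.2 and 12.7 CPM in non-LRC cells. LLRCs were lower in 3 mice and higher in JV602. Klf2 had a log2 fold change of -2.32 (SE 0.77, unadjusted p = 0.0141, adjusted p = 0.688 by edgeR's quasi-likelihood test), and the replicate block gave -1.995 with an unadjusted p = 0.0717 in edgeR.

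The list of S1P removal, carriers and receptor control, which holds Klf2, had 9 of 12 genes tested and a median log2 fold change of -0.67, with 7 of the 9 below 0. Its most abundant gene per kb was Sgpl1, which encodes S1P lyase, at 86.7 ± 19.3 CPM in LLRCs against 144.95 ± 98.9 CPM in non-LRC cells (SD, n = 4). The 7 G protein genes were all tested, with a median of -0.49 and a range from -2.38 to 0.80. Gnai3, an inhibitory alpha subunit, led them per kb at 285.0 ± 23.8 CPM and 265.7 ± 97.6 CPM (SD, n = 4).

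The list of ceramide and sphingosine synthesis and turnover had 24 of 28 genes tested, 15 above and 9 below 0, with a median of 0.081. Degs1, the desaturase that makes ceramide, led it at 289.1 ± 51.7 CPM and 353.4 ± 157.9 CPM (SD, n = 4), and Acer2 was its only gene with an unadjusted p below 0.05. The other phospholipid phosphatases had 5 of 9 genes tested with a median of 0.057, and Plpp6, a presqualene diphosphate phosphatase, led per kb at 27.7 ± 9.88 CPM and 21.7 ± 9.98 CPM. LPA receptors and LPA synthesis had 5 of 9 tested with a median of 0.21, led by the receptor gene Lpar6 at 87.0 ± 17.3 CPM and 111.7 ± 45.2 CPM. Plpp4, Plppr5, Lpar3 and Lpar5 had no reads in any library.

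**Figure D5:**
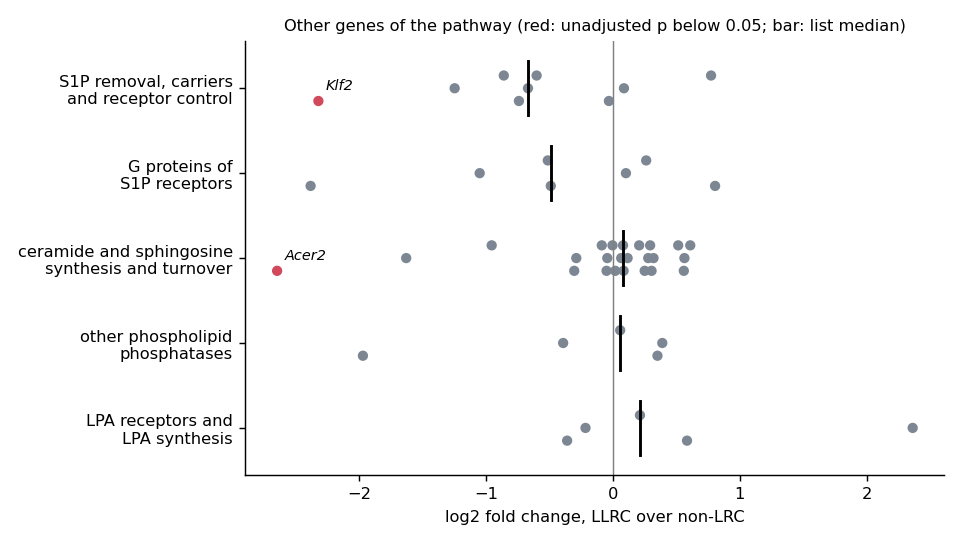
Log2 fold change of LLRC over non-LRC cells for the 50 tested genes of 5 pathway lists, 1 point per gene, with a bar at the median of each list. Acer2 and Klf2, the 2 points in red with an unadjusted p below 0.05, lie at -2.65 and -2.32.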

How the data were processed

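RNA-seq was performed on 8 libraries, 1 LLRC and 1 non-LRC library from each of 4 mice. The authors deposited raw counts per gene, made with HTSeq (union mode, no strand) from reads on exons of Ensembl genes of GRCm38.p4. The aligner is not given in the sources used here. A deposited table of the authors' edgeR 3.2.4 comparison (log2 fold changes, abundance and p-values) was not used. Symbols, coordinates and exon lengths came from GENCODE M21 (GRCm38), which matched all 153 symbols listed.

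Genes that passed filterByExpr (13605) were TMM-scaled (factors 0.816 to 1.23) and tested with edgeR 4.0.16 in R 4.3.3 (glmQLFit and glmQLFTest, group as the only term), with Benjamini-Hochberg adjustment over all genes tested and a threshold of 0.05. The fit was tested on simulated data with known changes. DESeq2 1.42.0 and limma 3.58.1 served as alternatives, beside other filters and scalings, the mouse as a replicate block and left-out libraries. Single genes were also compared by an exact two-sided permutation test of log2(CPM + 1). A floor of 3 counts equals 0.289 to 0.623 CPM. CPM per kb divides by the union of exons. Libraries with the same number were sorted from 1 mouse and are paired by it. Their deviations from the mean of each group had correlations across genes of 0.090 (JV602), 0.099 (JV621), 0.004 (JV624) and 0.188 (JV6314). The genes and lists were chosen with earlier results of these data known. Named were the 10 genes, Epcam and Ptprc, and of each pathway list the genes past the adjusted threshold, up to 4 with the smallest unadjusted p below 0.05, and the gene with the highest mean CPM per kb. Marker genes were named where they were at 0 or described a sum.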

Additional observations from a re-analysis of the deposited data

Results flagged for a closer look

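In groups of 4 libraries, 3 values lay so far from the others that the gap, as a part of the group's range, exceeded Dixon's 95% critical value. The non-LRC library of JV621 held S1pr1 at 243.7 CPM (gap 0.920 of the range). The LLRC library of JV602 held S1pr2 at 13.1 CPM (gap 0.852 of the range), and the non-LRC library of JV624 held S1pr2 at 4.39 CPM (gap 0.901 of the range). Chance flags about 1 in 20 groups of normally distributed values, and 17 groups were examined. The gaps were taken on CPM without a log, where levels are skewed, so that rate need not hold here.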

How the results depend on the processing

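Over the 23 alternatives, S1pr1, Plpp1 and Plpp3 stayed below 0 and S1pr2 above 0 wherever they were tested. Over all genes, the calls at an adjusted p of 0.05, 0 in the main test, numbered 11 without an expression filter, 221 by DESeq2, 265 by DESeq2 without a filter, 127 by edgeR's exact test, 1 without the non-LRC libraries of JV621 and JV6314, and 0 to 6 when libraries were left out in turn, the 6 without the non-LRC library of JV602. Of the S1P genes, 2 were called by DESeq2, 3 by DESeq2 without a filter and 1 by the exact test. At an unadjusted p below 0.05, DESeq2 without a filter had 5 in place of 3, with S1pr2 the only one of the 5 higher in LLRCs, and the other alternatives had 2 to 4. Of the pathway lists, 1 gene was called by each of these tests. With the replicate block 0 genes were called over all, and 569 had an unadjusted p below 0.05. The log2 fold change of Sphk2 turned to 0.24 with the block. It was 0.45 without the non-LRC library and 0.62 without both libraries of JV624. Sphk1 turned to -0.10 without the LLRC library of JV602 and to -0.021 without the non-LRC libraries of JV621 and JV6314. Spns2 turned to -0.079 without the LLRC library of JV602 and to -0.021 without the non-LRC library of JV6314, and Plpp2 to -0.13 without the latter and -0.014 without both libraries of JV6314. With libraries left out for 1 mouse at a time, Sphk1 lay between -0.10 and 1.002, Sphk2 between -0.82 and 0.62, Spns2 between -0.079 and 0.45, and Plpp2 between -0.13 and 0.52. The cause was not tested. Without the non-LRC libraries of JV621 and JV6314, S1pr1 had a log2 fold change of -2.39 (unadjusted p = 0.0827 in edgeR). DESeq2 without a filter and the fit without the non-LRC libraries of JV621 and JV6314 were chosen after seeing the data. Counts this low limit S1pr3 and S1pr5.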
